A study of Mus musculus with 20 samples.

Results

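The genes described are 36 genes of glucose use and of the response to low oxygen in p19/Nras mouse liver cancer cells: glucose and lactate transporters, the enzymes of glycolysis, 2 genes at the entry of pyruvate into mitochondria, the pentose phosphate enzymes and 8 genes of the hypoxia response. They were chosen by symbol from a list of 37 symbols in which Pkm and Pkm2 name the same gene. Of the 36 genes, 34 were in each of the tables of the 2 RNA-seq experiments, among 13107 and 11210 genes, and all 34 were tested, since the filter on low counts removed 0 genes. The lactate dehydrogenase gene Ldhb and the lactate transporter gene Slc16a3 were in neither table and have no values here.

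Glycolysis splits glucose into pyruvate, and lactate dehydrogenase turns pyruvate into lactate when oxygen is short or growth is fast. The pentose phosphate pathway draws glucose 6-phosphate from the head of glycolysis to make NADPH and ribose for nucleotides. Under low oxygen the transcription factor Hif1a is no longer hydroxylated by the Egln enzymes, so it is not destroyed, and with its partner Arnt it binds a short site, the hypoxia response element, near genes of glycolysis, vessel growth and cell survival. Myc binds a related site, the E-box, and many genes of glycolysis are known targets of both factors.

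The cells lack p19 (Arf) and carry an oncogenic Nras, in every group. The Myc experiment had 12 libraries, 2 in each of 6 groups: Trim33-WT cells (sgCtrl) and the lines KO1 and KO2, in which CRISPR with a guide to Trim33 (sgTrim33) was used, each with the empty pWZL vector (Ctrl) or with a Myc vector. The HU experiment had 8 libraries, 2 in each of 4 groups: WT (sgCtrl) and KO (sgTrim33) cells given vehicle or hydroxyurea (HU), an inhibitor of ribonucleotide reductase that stalls DNA replication, at 1 mM for 4 h. Which of the KO lines the HU experiment used is not in the labels. Nothing in the labels says that the 2 libraries of a group came from separate cultures, so the p-values measure only the spread between these libraries, which may be technical.

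The letters of both kinds of site were sought on both strands in the 250 bases before each annotated start of a gene. The starts were those of the promoter table of RefSeq (build GRCm38.p6), which held 35 of the 36 genes, Ndrg1 being absent and Ero1l being listed as Ero1a. A gene was counted when any of its starts held the letters, for the members and for all genes alike. A gene with more starts therefore had more chances of a match. The core letters ACGTG of the hypoxia response element were found in 18 of the 35 genes, against 18.5% of all 27025 genes in that table, and in all 7 of the hypoxia genes that have an entry. For Vegfa the match lay only before the start farther downstream (chr17:46025164-46025413, minus strand). The bases before its upstream start (chr17:46032378-46032627) held 0 matches of either core. The other core, GCGTG, was found in 26 of the 35 genes, against 30.9% of all genes. The E-box CACGTG, which holds ACGTG on each strand and so counts as 2 matches of it, was found in 6 genes (Bnip3, Hif1a, Ldha, Pfkfb3, Pfkm and Slc16a1), against 6.86% of all genes. Ldha, Pfkfb3 and Pfkm have several starts and held the E-box before only 1 of them. The 6 pentose phosphate genes held 0 matches of ACGTG, and each of the 6 held GCGTG.

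The 250 bases before the start are shown 5′ to 3′ on the gene's own strand for the member that differed most between KO1 and WT cells (Ero1l, chr14:45318573-45318822, minus strand), for 2 members that rose with HU (Egln3, chr12:54203875-54204124, minus strand, and Bnip3, chr7:138909507-138909756, minus strand), for the glucose transporter (Slc2a1, chr4:119108495-119108744, plus strand) and for the first of the Ldha starts in the table (chr7:46845554-46845803, plus strand), which holds 2 E-boxes. Capitals mark every match of the cores or of the E-box on either strand, so that a match on the other strand reads as its reverse complement. A match says that the letters are there, and binding was not measured.
Ero1l: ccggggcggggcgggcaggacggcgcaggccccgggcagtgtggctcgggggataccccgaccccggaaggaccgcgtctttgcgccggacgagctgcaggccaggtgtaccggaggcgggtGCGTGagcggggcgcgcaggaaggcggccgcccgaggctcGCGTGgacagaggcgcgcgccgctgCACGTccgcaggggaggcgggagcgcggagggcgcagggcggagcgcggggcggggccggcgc
Egln3: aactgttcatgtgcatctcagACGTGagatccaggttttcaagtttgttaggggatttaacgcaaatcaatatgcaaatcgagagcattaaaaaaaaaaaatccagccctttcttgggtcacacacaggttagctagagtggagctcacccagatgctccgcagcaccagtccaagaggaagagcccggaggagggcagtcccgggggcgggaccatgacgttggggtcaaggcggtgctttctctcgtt
Bnip3: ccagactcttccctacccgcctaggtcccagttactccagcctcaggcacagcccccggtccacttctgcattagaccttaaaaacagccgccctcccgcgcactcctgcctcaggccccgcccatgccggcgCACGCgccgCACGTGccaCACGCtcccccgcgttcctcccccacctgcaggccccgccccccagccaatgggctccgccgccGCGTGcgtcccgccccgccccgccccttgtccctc
Slc2a1: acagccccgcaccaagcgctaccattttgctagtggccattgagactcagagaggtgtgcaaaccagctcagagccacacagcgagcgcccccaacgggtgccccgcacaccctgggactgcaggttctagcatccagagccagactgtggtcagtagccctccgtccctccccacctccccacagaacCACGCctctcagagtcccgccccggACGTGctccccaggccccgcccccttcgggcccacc
Ldha: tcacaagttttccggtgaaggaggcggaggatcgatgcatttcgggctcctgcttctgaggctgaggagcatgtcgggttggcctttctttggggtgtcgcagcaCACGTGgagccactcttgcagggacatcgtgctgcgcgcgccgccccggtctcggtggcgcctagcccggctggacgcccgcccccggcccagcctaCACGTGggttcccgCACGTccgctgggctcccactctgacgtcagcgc

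Total counts were 14753177 to 17949430 per library in the Myc experiment and 2315327 to 3082202 in the HU experiment, so small differences are harder to see in the latter. Values are CPM, which are counts normalised to the library's size with edgeR's TMM factors, and a value with ± beside a gene is its log2 fold change with the standard error. Each experiment was normalised alone. Tests are edgeR quasi-likelihood tests with Benjamini-Hochberg adjustment across every gene of a table, and a gene was called at an adjusted p below 0.01 in the Myc experiment and below 0.05 in the HU experiment, the thresholds of the study. Of the counts from 1 to 50, 71.9% were even in the HU experiment, against 48.4% in the Myc experiment. Of the 12 hepatocyte markers listed, 11, Alb and Hnf4a among them, were in neither table, and the 1 that was is Afp. With the Ctrl vector it was at 33.0 and 30.2 CPM in WT cells, against 0.798 and 0.920 for KO1 and 8.56 and 8.13 for KO2, at 25.1 and 19.5 in WT Myc, 3.55 and 2.53 in KO1 Myc and 0.297 and 0.221 in KO2 Myc, and at 11.4 to 17.1 in the WT and 20.5 to 26.9 in the KO libraries of the HU experiment. The summed CPM of the keratins Krt8, Krt18 and Krt19 was 4306 and 4140 for WT Ctrl, against 3174 and 3218 for KO1 Ctrl and 3438 and 3499 for KO2 Ctrl, 1910 to 3527 in the libraries labelled Myc and 2171 to 3097 in the HU experiment. The mesenchymal markers listed, Vim and collagen genes among them, were all in the Myc table, where the 6 had a sum of 3106 and 2913 CPM for WT Ctrl, against 4204 and 4245 for KO1 Ctrl and 3285 and 3238 for KO2 Ctrl, and 2908 to 3831 in the libraries labelled Myc, and 4 of them were in the HU table, at 2667 to 2945 in WT and 3069 to 3444 in KO. These markers therefore moved with the groups compared, and their part in the results was not tested. Of the immune markers only Cd68 was listed, at 0.790 to 6.30 CPM, and 0 of the 4 endothelial markers was listed.

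The targeted gene was checked first. Trim33 mRNA with the Ctrl vector was at 246 and 258 CPM in WT cells, 123 and 130.4 in the KO1 line and 200.9 and 207 in the KO2 line, so it was lower in the KO lines by a log2 fold change of −0.99 ± 0.0692 (SE) in KO1 and −0.31 ± 0.0676 in KO2. A guide that cuts the gene need not remove its mRNA. In the libraries labelled Myc it was at 131 and 155 CPM in WT, against 185 and 193 in KO1 and 124 and 125 for KO2, so that it was higher in KO1 Myc than in WT Myc (0.40 ± 0.0686, adjusted p = 0.000243), which goes against the labels. In the HU experiment it was at 139.7 and 125 CPM in WT and 50.8 and 43.8 in KO with vehicle, and at 142 and 139 in WT and 50.9 and 52.2 in KO with HU. Myc mRNA was at 433 and 439 CPM in WT Ctrl and 456 and 458 in WT Myc, a difference that was not called (0.07 ± 0.0548, adjusted p = 0.31), while it was at 186 and 196 in KO1 Ctrl and 621 and 646 in KO1 Myc, and at 210.3 and 219 in KO2 Ctrl and 459 and 499 in KO2 Myc. The libraries of the Myc vector are therefore called libraries labelled Myc.

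A further check set the 2 KO lines against each other with each vector, in libraries that the comparisons do not share. With Ctrl, 10 members differed between KO2 and KO1, beside 18.3% of all genes (8.33% higher and 9.96% lower). With the Myc vector every one of these 10 differed in the opposite direction, 7 of them past the threshold, as did 2084 of the 2398 genes called with Ctrl (86.9%), and 14 members were called, beside 18.5% of all genes (9.35% higher and 9.14% lower). Over all genes, 1301 were called in both comparisons, of which 1265 had opposite signs, and Pearson's r of the log2 differences was −0.73 across the 13107 genes, which are not independent replicates. Pdha1, the catalytic subunit of pyruvate dehydrogenase, shows the pattern at 107 and 109 CPM in KO1 Ctrl, 186 and 196 in KO2 Ctrl, 196 and 201.5 in KO1 Myc and 102 and 109 in KO2 Myc. Its level was high in the libraries labelled KO2 Ctrl and KO1 Myc and low in those labelled KO1 Ctrl and KO2 Myc, with no overlap. P4ha1, a prolyl hydroxylase subunit that matures collagen, was the other way round, at 227 and 216 CPM in KO1 Ctrl, 138 and 151 in KO2 Ctrl, 145 and 166 in KO1 Myc and 242 and 234 in KO2 Myc, and Trim33 itself was higher in KO2 than in KO1 with Ctrl (0.68 ± 0.0693) and lower with Myc (−0.60 ± 0.0689). The cause was not tested. Responses to the Myc vector in KO cells are therefore given first for the mean of both lines, which is the same whichever of these libraries belong to which line; this mean was chosen after the values had been seen.

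The first comparison asked what differed in cells that lack Trim33. With the Ctrl vector, most of the hypoxia genes were lower in both KO lines, Ero1l and Ndrg1 by the largest amounts, whereas Pgd, Tkt and Taldo1 of the pentose phosphate pathway and several enzymes of the lower part of glycolysis were higher. In KO1, 28 of the 34 members were called, 13 higher and 15 lower, beside 52.2% of all genes (25.5% higher and 26.7% lower), and in KO2 26 were called, 12 higher and 14 lower, beside 49.9% of all genes (23.3% higher and 26.6% lower). Of the 8 hypoxia genes, 6 were lower and 1 higher in KO1 (median log2 fold change −1.11) and 7 lower and 1 higher in KO2 (−1.204), while the median over all genes was 0.00 and −0.01. KO1 and KO2 were each set against the same pair of WT Ctrl libraries. In the same KO Ctrl libraries Afp and the summed keratins lay below WT Ctrl and the summed mesenchymal markers above it, as given above, and their part in these values was not tested. In a bulk sample, fewer cells that make an RNA and less of it in each cell cannot be told apart.

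**Figure D1:**
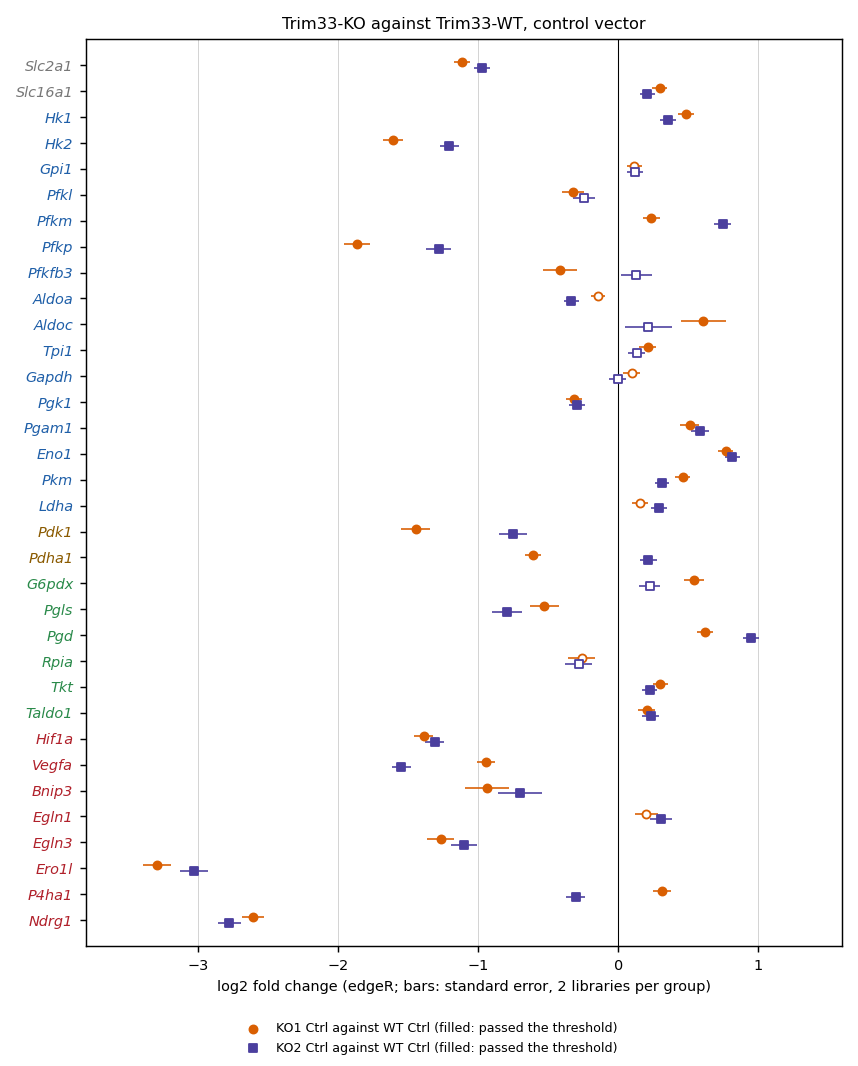
The plot shows, for each of the 34 members, the log2 fold change of KO1 Ctrl (circles) and KO2 Ctrl (squares) against WT Ctrl, with bars for the standard error and filled symbols for an adjusted p below 0.01. Gene names are coloured by role: transporters grey, glycolysis blue, pyruvate entry brown, pentose phosphate green and hypoxia red. Ero1l and Ndrg1 lie farthest to the left, near or below −2.6, and Eno1 and Pgd farthest to the right.

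Ero1l encodes an oxidase that forms disulfide bonds in the endoplasmic reticulum and is induced by Hif1. It was at 506 and 556 CPM in WT Ctrl, against 53.7 and 54.7 in KO1 Ctrl and 60.0 and 70.2 for KO2 Ctrl. Both KO lines were far below WT without overlap, at −3.29 ± 0.101 in KO1 and −3.03 ± 0.0993 in KO2 (adjusted p = 1.82e-13 by edgeR for the former and adjusted p = 1.11e-12 for the latter). Ndrg1, a gene of differentiation and stress that hypoxia induces, was at 464 and 484 CPM in WT, against 79.0 and 76.8 in KO1 and 67.5 and 70.8 for KO2. It fell in both lines without overlap, with −2.61 ± 0.0800 and −2.78 ± 0.0808.

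Hif1a, the oxygen-regulated subunit of the factor itself, was at 917 and 889.8 CPM in WT Ctrl, 353 and 337 in KO1 and 354 and 375 in KO2. Its mRNA was lower in both lines, at −1.39 ± 0.0684 and −1.31 ± 0.0682. Vegfa, a growth factor for blood vessels, was at 315 and 317 CPM in WT, against 167 and 161 in KO1 and 110.4 and 106 for KO2. It was lower, at −0.95 ± 0.0627 in KO1 and −1.55 ± 0.0643 in KO2, and lower in KO2 than in KO1 (−0.60 ± 0.0647, adjusted p = 2.71e-06). Egln3, an oxygen sensor that is itself induced by Hif1, was at 87.7 and 91.3 CPM in WT, 38.7 and 35.6 in KO1 and 39.7 and 43.8 for KO2, and it was lower, at −1.27 ± 0.0936 and −1.10 ± 0.0923. Bnip3, which marks mitochondria for removal, was at 47.1 and 53.0 CPM in WT, against 23.8 and 28.5 in KO1 and 28.2 and 33.4 for KO2. It was lower, at −0.94 ± 0.159 in KO1 and −0.70 ± 0.156 in KO2. Not all hypoxia genes were lower: the oxygen sensor Egln1 was higher in KO2 (0.31 ± 0.0811, adjusted p = 0.00382) and not called in KO1 (0.20 ± 0.0815, adjusted p = 0.0424), and P4ha1 was higher in KO1 (0.31 ± 0.0666) and lower in KO2 (−0.30 ± 0.0675).

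**Figure D2:**
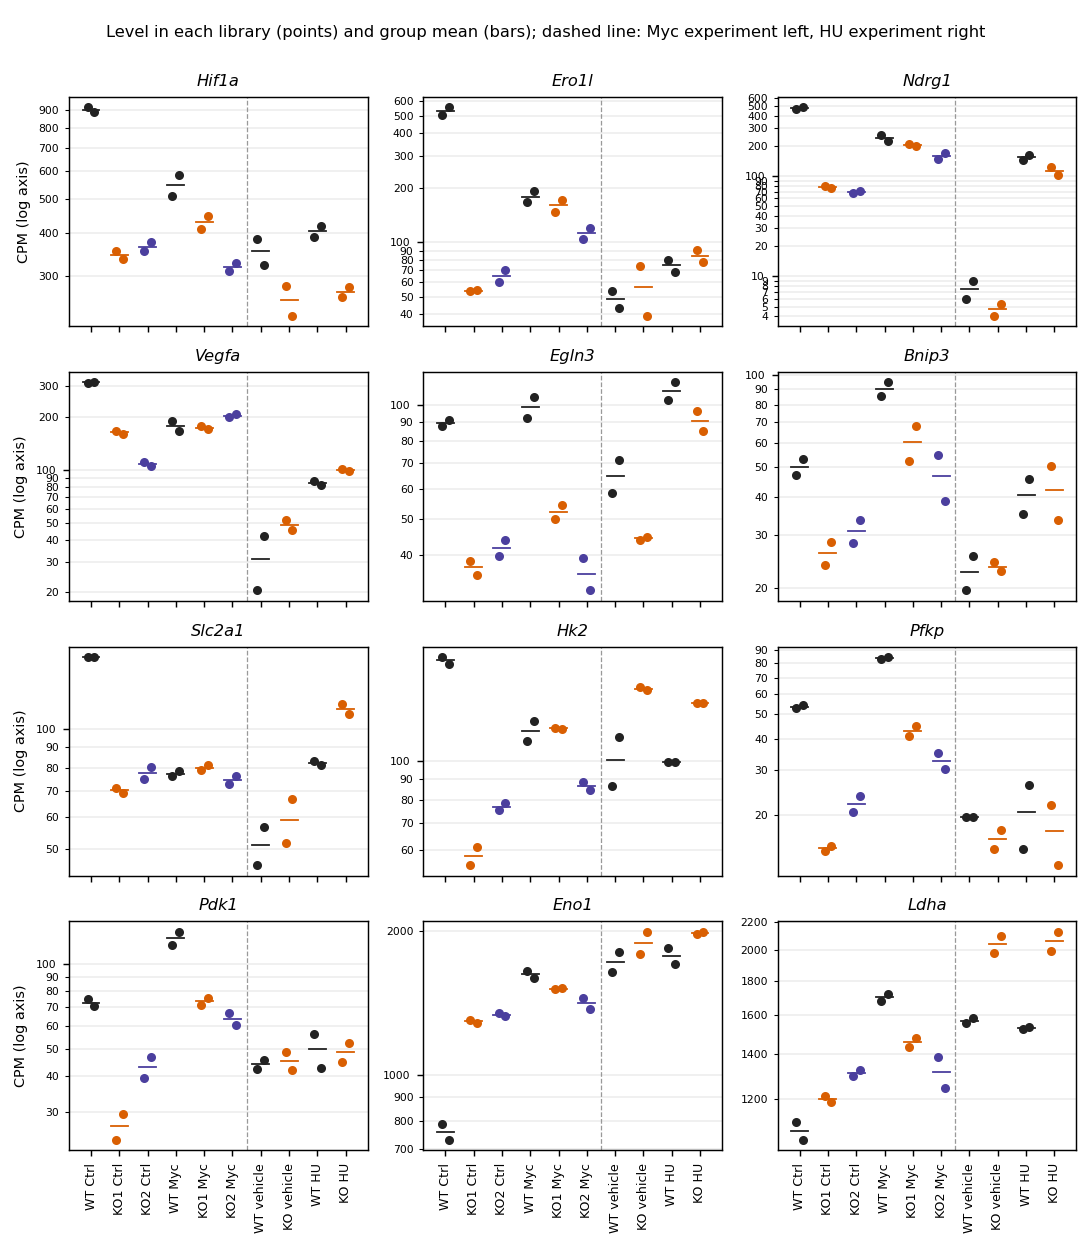
Each panel gives the CPM of 1 gene in all 20 libraries on a log axis, with a point per library and a bar for the group mean. The Myc experiment is left of the dashed line and the HU experiment right of it, and they were normalised separately. In the panels of Hif1a, Ero1l, Ndrg1, Vegfa, Slc2a1 and Hk2 the 2 WT Ctrl libraries stand above the other 10 of their experiment, and Ndrg1 rises from below 10 CPM with vehicle to above 100 CPM with HU.

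At the entry of glucose, Slc2a1 (the transporter Glut1) was at 152 and 152 CPM in WT Ctrl, 71.1 and 69.1 in KO1 and 74.9 and 80.1 in KO2. It was lower in both lines, at −1.12 ± 0.0584 and −0.97 ± 0.0579. Hk2, the inducible hexokinase that traps glucose in the cell, was at 181 and 174 CPM in WT, 55.1 and 61.3 in KO1 and 75.4 and 78.6 for KO2 and was lower, at −1.61 ± 0.0698 and −1.21 ± 0.0680. Its housekeeping paralog Hk1 was instead higher, by 0.48 ± 0.0576 and 0.35 ± 0.0577. Levels per kilobase were taken over the joined exons of all annotated transcripts of a gene. On that measure Hk2 exceeded Hk1 in WT Ctrl (29.7 ± 0.825 against 21.2 ± 0.259 CPM per kb, SD, n = 2). Hk2 was the lower of the pair in KO1 Ctrl (9.75 ± 0.729 against 29.6 ± 0.506) and in KO2 Ctrl (12.9 ± 0.380 against 27.1 ± 0.283). The joined exons measure 8532 bases for Hk1 and 5969 for Hk2, and the coding sequences 2925 and 2754. The gap in WT Ctrl therefore depends on the length used, and it does not show that Hk2 had the higher level there.

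Phosphofructokinase, the committed step of glycolysis, has 3 genes that did not move together. The platelet form Pfkp was at 52.8 and 54.5 CPM in WT Ctrl, 14.4 and 15.0 in KO1 and 20.4 and 23.7 in KO2, lower, at −1.86 ± 0.0947 and −1.28 ± 0.0891. The muscle form Pfkm was higher, by 0.24 ± 0.0611 in KO1 and 0.75 ± 0.0597 in KO2, and the liver form Pfkl was lower in KO1 (−0.32 ± 0.0795) and at −0.24 ± 0.0792 in KO2 (adjusted p = 0.0139). The liver form had the highest level per kilobase in WT Ctrl, at 45.0 ± 0.191 CPM per kb, against 18.0 ± 0.453 for Pfkm and 5.71 ± 0.123 for Pfkp. The joined exons measure 3051 bases for Pfkm and 9395 for Pfkp, while the coding sequences measure 2343 and 2355. The gap between Pfkm and Pfkp therefore depends on the length used, and it does not show that Pfkp had the lower level. Pfkfb3, which makes the allosteric activator of phosphofructokinase, was at 15.1 and 15.3 CPM in WT, against 11.8 and 11.04 in KO1 and 16.7 and 16.7 for KO2, lower in KO1 (−0.42 ± 0.119) and not called in KO2 (0.13 ± 0.112, adjusted p = 0.328).

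Below the split of the sugar, enolase led. Eno1 was at 787 and 730.1 CPM in WT Ctrl, 1301 and 1283 in KO1 and 1343 and 1327 in KO2. It was higher by 0.77 ± 0.0527 and 0.82 ± 0.0528, and the step before it, Pgam1 (phosphoglycerate mutase), by 0.51 ± 0.0667 and 0.58 ± 0.0667. Pkm, a pyruvate kinase gene, was at 1679 and 1643 CPM in WT, against 2315 and 2254 in KO1 and 2094 and 2035 for KO2, higher by 0.46 ± 0.0512 and 0.31 ± 0.0512. Phosphoglycerate kinase, Pgk1, went the other way, at −0.32 ± 0.0557 and −0.30 ± 0.0557. The aldolase Aldoa was at 953 and 930.1 CPM in WT, 851 and 854 in KO1 and 739 and 754 for KO2 and was lower in KO2 (−0.33 ± 0.0517), with −0.14 ± 0.0516 in KO1 (adjusted p = 0.0234). Gapdh was at 121 and 115 CPM in WT, 129 and 123 in KO1 and 115 and 120.3 for KO2 and was called in neither line (0.10 ± 0.0611 and −0.01 ± 0.0613), and Ldha, which makes lactate, was at 1107 and 1041 CPM in WT, 1209 and 1185 in KO1 and 1298 and 1326 for KO2, higher in KO2 (0.29 ± 0.0569) and at 0.16 ± 0.0569 in KO1 (adjusted p = 0.0245). Some of these genes have near-identical copies elsewhere in the mm9 genome, at 150 bases or more and at least 95% identity: 77 for Gapdh, 5 for Ldha, 4 for Pgk1, 3 each for Eno1 and Bnip3, 2 for Pgam1 and 1 each for Gpi1, Pkm and Tpi1. How reads that fit several copies were counted is not given in the sources used here, so the counts of these 9 genes are uncertain.

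At the exit of glycolysis, Pdk1, the kinase that shuts pyruvate dehydrogenase and a target of Hif1, was at 74.9 and 70.8 CPM in WT Ctrl, 23.9 and 29.5 in KO1 and 39.6 and 47.0 in KO2. It was lower, at −1.45 ± 0.103 and −0.75 ± 0.0973, and higher in KO2 than in KO1 (0.70 ± 0.107). Pdha1 was lower in KO1 (−0.61 ± 0.0591) and higher in KO2 (0.22 ± 0.0576), and the lines differed (0.82 ± 0.0587, adjusted p = 2.28e-08). Slc16a1, a lactate transporter, was at 159 and 155 CPM in WT, 198 and 188 in KO1 and 184 and 179 for KO2 and was higher by 0.29 ± 0.0540 and 0.21 ± 0.0540.

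Of the 6 pentose phosphate genes, 4 were higher and 1 lower in KO1, beside 52.2% of all genes called (25.5% higher and 26.7% lower). In KO2, 3 were higher and 1 lower, beside 49.9% of all genes (23.3% higher and 26.6% lower). Pgd, which releases carbon dioxide and the second NADPH, changed most, from 189.6 and 175 CPM in WT Ctrl to 276 and 283 in KO1 (0.62 ± 0.0562) and 357 and 345 in KO2 (0.95 ± 0.0561). G6pdx, the rate-limiting first enzyme, was at 84.4 and 83.8 CPM in WT, 121 and 124 in KO1 and 97.8 and 98.6 for KO2, higher in KO1 (0.54 ± 0.0741) and at 0.22 ± 0.0748 in KO2 (adjusted p = 0.0166). Tkt, the transketolase of the non-oxidative branch, was at 473 and 439 CPM in WT, 558 and 565 in KO1 and 539.7 and 527 for KO2 and was higher by 0.30 ± 0.0529 and 0.22 ± 0.0529. Pgls, the lactonase between G6pdx and Pgd, was the member that was lower, at −0.53 ± 0.105 and −0.80 ± 0.107, at 63.4 and 62.1 CPM in WT, against 44.0 and 43.2 in KO1 and 40.1 and 32.3 for KO2, and the isomerase Rpia was called in neither line.

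Among the comparisons with WT Ctrl, 21 of the 28 calls in KO1 held in each of the fits that left out 1 of the 4 libraries. The calls of Pfkfb3, Pfkl, Taldo1 and Tpi1 were lost without any 1 of the 4 libraries compared (adjusted p up to 0.0498, 0.0213, 0.0909 and 0.0671). The call of Aldoc was lost without WT Ctrl replicate 1, WT Ctrl replicate 2 or KO1 Ctrl replicate 1 (adjusted p up to 0.0434). The calls of P4ha1 and Pfkm were lost without WT Ctrl replicate 2 or KO1 Ctrl replicate 1 (adjusted p up to 0.0126 and 0.0408). In KO2, 19 of the 26 calls held. The call of Slc16a1 was lost without any 1 of the 4 libraries compared (adjusted p up to 0.0353). The calls of Egln1 and Pdha1 were lost without WT Ctrl replicate 1, WT Ctrl replicate 2 or KO2 Ctrl replicate 2 (adjusted p up to 0.0545 and 0.0565). The call of Taldo1 was lost without WT Ctrl replicate 2, KO2 Ctrl replicate 1 or KO2 Ctrl replicate 2 (adjusted p up to 0.0513). The calls of Bnip3 and Tkt were lost without WT Ctrl replicate 2 or KO2 Ctrl replicate 1 (adjusted p up to 0.0208 and 0.0341). The call of P4ha1 was lost without WT Ctrl replicate 1 or KO2 Ctrl replicate 1 (adjusted p up to 0.0265).

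Between the KO lines with Ctrl, 7 members were higher and 3 lower in KO2. Beside Pdha1, Vegfa, P4ha1 and Pdk1, already given, KO2 was higher for Pfkp (0.58 ± 0.104), Pfkfb3 (0.55 ± 0.116), Pfkm (0.51 ± 0.0586), Hk2 (0.40 ± 0.0720) and Pgd (0.33 ± 0.055) and lower for G6pdx (−0.32 ± 0.0730). Ero1l, Ndrg1, Hif1a, Egln3 and Slc2a1 were not called between the lines. Their differences had approximate 95% intervals of 0.06 to 0.47, −0.33 to −0.01, −0.05 to 0.21, −0.02 to 0.36 and 0.03 to 0.26 on the log2 scale. These and the later intervals were built from the SE with the normal distribution. They are somewhat narrower than the quasi-likelihood test would give. The calls of G6pdx and Pfkfb3 were lost without any 1 of the 4 libraries compared (adjusted p up to 0.0357 and 0.0281). The call of Hk2 was lost without KO1 Ctrl replicate 1 (adjusted p up to 0.016). The call of Pfkp was lost without KO2 Ctrl replicate 2 (adjusted p up to 0.0135).

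The second comparison asked what the Myc vector did to these genes. In WT cells most enzymes of glycolysis were higher in the libraries labelled Myc, while Ero1l, Ndrg1, Vegfa, Hif1a, Slc2a1 and Hk2 were lower. Of the 34 members, 26 were called, 20 higher and 6 lower, beside 44.3% of all genes (21.6% higher and 22.7% lower). Of the 16 glycolysis genes tested, 13 were higher and 1, Hk2, was lower, with a median log2 fold change of 0.56 against 0.01 over all genes. The 3 pentose phosphate genes that were called (Pgd, Tkt and G6pdx) were higher.

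Eno1 rose most, to 1648 and 1595 CPM (1.10 ± 0.0530, adjusted p = 2.01e-10), above both WT Ctrl libraries. Ldha reached 1678 and 1720.2 CPM (0.66 ± 0.0570), Aldoa 1226 and 1177 (0.35 ± 0.0515) and Gapdh 186 and 170.1 (0.59 ± 0.0602). Pfkp was at 82.9 and 84.5 CPM (0.64 ± 0.0781), Pfkfb3 at 22.4 and 27.7 (0.72 ± 0.105) and Pdk1 at 116 and 129 (0.75 ± 0.0904). All 7 lay above WT Ctrl without overlap. Bnip3 also rose, to 85.4 and 94.8 CPM (0.85 ± 0.142), as did Aldoc, the brain form of aldolase, at 6.43 and 6.84 CPM in Ctrl and 10.99 and 12.6 with Myc (0.83 ± 0.155). Slc16a1 was at 187 and 196 CPM (0.28 ± 0.0539), Tkt at 617 and 599 (0.41 ± 0.0528) and G6pdx at 96.3 and 116 (0.34 ± 0.0743), while Pkm, at 1787 and 1868, was not called (0.14 ± 0.0511, adjusted p = 0.0301).

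The members that fell stood well below WT Ctrl. Ero1l was at 166 and 191 CPM (−1.57 ± 0.0915), Ndrg1 at 258 and 225 (−0.97 ± 0.0738) and Vegfa at 191 and 167 (−0.82 ± 0.0623). Slc2a1 was at 76.3 and 78.3 CPM (−0.97 ± 0.0577), Hif1a at 509 and 584 (−0.72 ± 0.0671) and Hk2 at 112 and 126 (−0.58 ± 0.0659). None of the 6 overlapped with WT Ctrl. Egln3, at 92.2 and 104 CPM, was not called (0.14 ± 0.0861, adjusted p = 0.189). Trim33 mRNA was lower in the same libraries (−0.82 ± 0.0686) and Myc mRNA did not differ past the threshold, and the part of either in these values was not tested. The call of G6pdx was lost without WT Ctrl replicate 1, WT Ctrl replicate 2 or WT Myc replicate 2 (adjusted p up to 0.0142). The call of Pfkl was lost without WT Ctrl replicate 1 or WT Ctrl replicate 2 (adjusted p up to 0.0174). The value of G6pdx was 0.20 without WT Myc replicate 2, against 0.34 with all libraries. The pair of WT Myc libraries differed more from each other than those of the other groups of that experiment, with a squared difference of 11.05 times counting noise per gene on average, against 2.21 to 4.52, and every value for WT Myc rests on this pair.

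**Figure D3:**
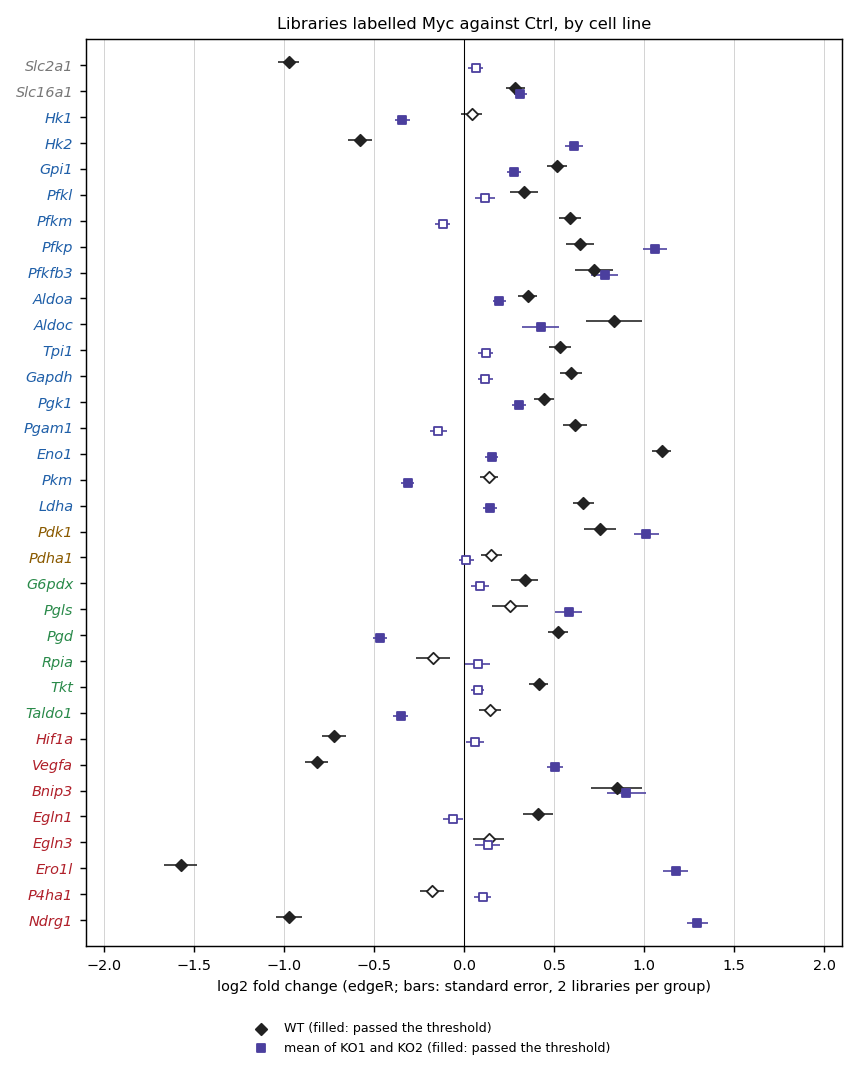
The plot shows the log2 fold change of the libraries labelled Myc against Ctrl in WT cells (diamonds) and as the mean of KO1 and KO2 (squares), with bars for the standard error and filled symbols for an adjusted p below 0.01. For Ero1l, Ndrg1, Vegfa and Hk2 the diamond is on the left of 0 and the square on its right, and most glycolysis genes have the diamond farther right than the square.

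In KO cells, averaged over both lines, the libraries labelled Myc had 16 members higher and 4 lower, beside 42.0% of all genes (21.1% higher and 20.9% lower) called. Ndrg1 and Ero1l were higher, by 1.30 ± 0.0562 and 1.17 ± 0.0702, and so were Pfkp (1.06 ± 0.0663), Pdk1 (1.01 ± 0.0704), Bnip3 (0.90 ± 0.109), Pfkfb3 (0.78 ± 0.0749), Hk2 (0.61 ± 0.0493) and Vegfa (0.50 ± 0.0449). Ndrg1 was at 209 and 199 CPM in KO1 Myc and 146 and 171 in KO2 Myc, and Ero1l at 147 and 172 in KO1 and 105 and 121 in KO2. All 4 libraries lay above the 4 KO Ctrl libraries and below the WT Ctrl libraries for both genes. Pdk1 was at 71.7 and 75.3 CPM in KO1 Myc and 66.8 and 60.9 in KO2 Myc, Pfkp at 41.2 and 45.1 in KO1 and 35.1 and 30.5 in KO2, and Hk2 at 121 and 119.9 in KO1 and 88.6 and 84.6 in KO2. These too lay above all KO Ctrl libraries.

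Lower with Myc in KO cells were Pgd (−0.47 ± 0.0391), Taldo1, the transaldolase of the pentose phosphate pathway (−0.35 ± 0.0429), Hk1 (−0.34 ± 0.0405) and Pkm (−0.31 ± 0.0361). Pkm was at 1655 and 1713 CPM in KO1 Myc and 1868 and 1764 in KO2 Myc, and Pgd at 252 and 242 in KO1 and 213 and 202.4 in KO2, below all 4 KO Ctrl libraries in each case. Hif1a, at 409.7 and 447 CPM in KO1 and 309.7 and 328 in KO2, and Slc2a1, at 78.8 and 81.0 in KO1 and 72.7 and 76.0 in KO2, were not called (0.06 ± 0.0480 and 0.07 ± 0.0420). The calls of Eno1 (0.15 ± 0.0369) and Ldha (0.14 ± 0.0401) were small, with levels of 1508 and 1515 CPM in KO1 and 1448 and 1372 in KO2 for Eno1 and of 1433 and 1479 in KO1 and 1384 and 1244 in KO2 for Ldha. Gapdh, at 128 and 132 CPM in KO1 and 132 and 135 in KO2, and Tkt, at 596 and 583 in KO1 and 576 and 552 in KO2, were not called (0.12 ± 0.0427 and 0.08 ± 0.0372). Leaving out 1 library gave 17 to 21 members called. The call of Ldha was lost without KO1 Ctrl replicate 1, KO1 Ctrl replicate 2, KO2 Ctrl replicate 1, KO2 Ctrl replicate 2, KO1 Myc replicate 1, KO1 Myc replicate 2 or KO2 Myc replicate 1 (adjusted p up to 0.0484). The call of Eno1 was lost without KO1 Ctrl replicate 1, KO1 Ctrl replicate 2, KO2 Ctrl replicate 1, KO2 Ctrl replicate 2 or KO2 Myc replicate 1 (adjusted p up to 0.0149). The call of Aldoc was lost without KO1 Ctrl replicate 2, KO2 Ctrl replicate 2 or KO2 Myc replicate 1 (adjusted p up to 0.0152).

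The response to the vector differed between WT cells and the mean of the KO lines for 20 members, 7 with a more positive and 13 with a more negative response in KO cells, beside 34.7% of all genes (18.1% higher and 16.6% lower). The difference in response was 2.75 ± 0.116 for Ero1l, 2.27 ± 0.0932 for Ndrg1, 1.32 ± 0.0768 for Vegfa, 1.19 ± 0.0823 for Hk2 and 0.78 ± 0.0824 for Hif1a on the log2 scale. It was −0.99 ± 0.0685 for Pgd, −0.94 ± 0.0643 for Eno1 and −0.76 ± 0.0814 for Pgam1. The same WT Ctrl libraries enter this difference, the comparisons of KO Ctrl with WT Ctrl and the response in WT, so these results are not independent. Myc mRNA itself rose by 1.44 ± 0.0398 in the mean of the KO lines and was not called in WT cells. Its own difference in response was 1.38 ± 0.0677, and that of Trim33 mRNA was 0.75 ± 0.0840, both called. The part of either in these values was not tested. Slc2a1 had a difference of 1.04 ± 0.0713, although its response in the mean of the KO lines was 0.07 ± 0.0420 and not called. Of the 16 glycolysis genes, 9 had a more negative response in KO cells and 2, Hk2 and Pfkp, a more positive one. Leaving out 1 library gave 18 to 23 members. The call of Gpi1 was lost without WT Ctrl replicate 1, WT Ctrl replicate 2, KO1 Ctrl replicate 1, KO1 Ctrl replicate 2, KO2 Ctrl replicate 1, KO2 Ctrl replicate 2, KO1 Myc replicate 1 or KO2 Myc replicate 2 (adjusted p up to 0.0433). The call of Pfkp was lost without WT Ctrl replicate 1, WT Ctrl replicate 2, KO1 Ctrl replicate 1 or KO2 Ctrl replicate 1 (adjusted p up to 0.0214). By line, 22 members differed in KO1, beside 37.3% of all genes (19.2% higher and 18.1% lower), and 19 in KO2, beside 32.8% of all genes (16.6% higher and 16.2% lower).

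Taken by their labels, the lines gave 20 members called in KO1, 16 higher and 4 lower, beside 36.1% of all genes (17.9% higher and 18.2% lower), and 20 in KO2, 14 higher and 6 lower, beside 38.8% of all genes (20.2% higher and 18.6% lower). The values that hang on the labels most are those of Pdha1, higher in KO1 (0.88 ± 0.0586) and lower in KO2 (−0.86 ± 0.0584), of P4ha1, lower in KO1 (−0.51 ± 0.0666) and higher in KO2 (0.72 ± 0.0668), and of Pfkm, higher in KO1 (0.26 ± 0.0589) and lower in KO2 (−0.50 ± 0.0580). In the mean of both lines these 3 genes were at 0.01 ± 0.0412, 0.10 ± 0.0471 and −0.12 ± 0.0413, and none passed the threshold. Without KO1 Ctrl replicate 2 the number called in KO1 was 13. In KO1, the call of Taldo1 was lost without any 1 of the 4 libraries compared (adjusted p up to 0.0428). The call of Eno1 was lost without KO1 Ctrl replicate 1, KO1 Ctrl replicate 2 or KO1 Myc replicate 2 (adjusted p up to 0.0249). The calls of Gpi1, Hif1a and Pfkm were lost without KO1 Ctrl replicate 2 or KO1 Myc replicate 2 (adjusted p up to 0.0135, 0.0236 and 0.0316). The calls of Egln3 and Ldha were lost without KO1 Ctrl replicate 2 (adjusted p up to 0.0131 and 0.0122). In KO2, the calls of Aldoc and Pfkfb3 were lost without KO2 Ctrl replicate 1, KO2 Ctrl replicate 2 or KO2 Myc replicate 1 (adjusted p up to 0.0608 and 0.0149). The calls of Pgam1 and Pkm were lost without KO2 Ctrl replicate 1, KO2 Ctrl replicate 2 or KO2 Myc replicate 2 (adjusted p up to 0.118 and 0.083). The calls of Bnip3 and Gpi1 were lost without KO2 Ctrl replicate 1 or KO2 Myc replicate 1 (adjusted p up to 0.101 and 0.0138). The value of Aldoc was 0.37 without KO2 Myc replicate 1, against 0.60 with all libraries. The value of Bnip3 was 0.33 without KO2 Myc replicate 1, against 0.60 with all libraries. The value of Pgam1 was −0.15 without KO2 Myc replicate 2, against −0.24 with all libraries.

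Among the libraries labelled Myc, most of the members called between KO and WT cells were lower in KO. In the mean of both lines against WT Myc, Trim33 mRNA was not called (0.10 ± 0.0600, edgeR adjusted p = 0.174). Myc mRNA was higher in KO in that mean (0.27 ± 0.0477). The part of either in these values was not tested. In KO1, 11 of the 34 were called, all lower, beside 25.1% of all genes (12.6% higher and 12.5% lower). In KO2, 24 were called, 3 higher and 21 lower, beside 35.2% of all genes (17.2% higher and 18.0% lower), and in the mean of both lines 22 were called, 2 higher and 20 lower, beside 33.8% of all genes (16.0% higher and 17.8% lower). Egln3 was at 92.2 and 104 CPM in WT, against 49.8 and 54.3 in KO1 and 39.3 and 32.3 for KO2, which is −1.19 ± 0.0752 in the mean of both lines. Pfkp (−1.16 ± 0.0665), Pdk1 (−0.84 ± 0.0756), Bnip3 (−0.77 ± 0.118) and Hif1a (−0.57 ± 0.0573) were lower as well. Ero1l (−0.41 ± 0.0792) and Ndrg1 (−0.42 ± 0.0637) were lower by less than with Ctrl, as the difference in response above gives, and the levels of both with the Myc vector lay below those of WT Ctrl in every cell line. Bnip3 was at 52.3 and 68.3 CPM in KO1 Myc and 54.7 and 38.6 in KO2 Myc, and Aldoa at 915 and 937 in KO1 and 934 and 869 in KO2, in both cases below WT Myc. Slc16a1, at 212 and 218 CPM in KO1 and 252 and 249.9 in KO2, was higher in the mean of both lines (0.28 ± 0.0463). Vegfa, at 177 and 171 in KO1 and 199 and 209 in KO2, Pfkfb3, at 24.7 and 23.8 in KO1 and 24.1 and 22.2 in KO2, and G6pdx, at 104 and 107 CPM in KO1 and 133 and 124 in KO2, were not called in that mean.

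Without KO1 Myc replicate 1, 6 members were called between KO1 Myc and WT Myc. In KO1, the call of Tpi1 was lost without WT Myc replicate 2, KO1 Myc replicate 1 or KO1 Myc replicate 2 (adjusted p up to 0.131). The call of Ldha was lost without KO1 Myc replicate 1 or KO1 Myc replicate 2 (adjusted p up to 0.0819). The calls of Bnip3, Hif1a and Pgk1 were lost without KO1 Myc replicate 1 (adjusted p up to 0.0768, 0.0217 and 0.0109). The value of Bnip3 was −0.38 without KO1 Myc replicate 1, against −0.58 with all libraries. In KO2, the call of Eno1 was lost without WT Myc replicate 1 or KO2 Myc replicate 2 (adjusted p up to 0.0556). The calls of G6pdx and Pgls were lost without WT Myc replicate 1 or KO2 Myc replicate 1 (adjusted p up to 0.0655 and 0.0247). The call of Pgam1 was lost without WT Myc replicate 2 or KO2 Myc replicate 2 (adjusted p up to 0.0621). The call of Tpi1 was lost without KO2 Myc replicate 2 (adjusted p up to 0.0322). The value of G6pdx was 0.14 without WT Myc replicate 1 and 0.41 without WT Myc replicate 2, against 0.27 with all libraries. The value of Pgam1 was −0.18 without KO2 Myc replicate 2, against −0.27 with all libraries. In the mean of both lines, leaving out 1 library gave 19 to 22 members called. The call of Hk2 was lost without WT Myc replicate 2, KO1 Myc replicate 1, KO1 Myc replicate 2 or KO2 Myc replicate 2 (adjusted p up to 0.0742). The call of Pgam1 was lost without WT Myc replicate 2, KO1 Myc replicate 1 or KO2 Myc replicate 2 (adjusted p up to 0.0584). The call of Pgls was lost without WT Myc replicate 1, KO1 Myc replicate 2 or KO2 Myc replicate 1 (adjusted p up to 0.0768). The call of Pfkm was lost without KO1 Myc replicate 1 (adjusted p up to 0.0127). The call of Pgd was lost without KO1 Myc replicate 2 (adjusted p up to 0.0101). The value of Pgls was −0.19 without WT Myc replicate 1, against −0.33 with all libraries. The value of Hk2 was −0.13 without WT Myc replicate 2, against −0.22 with all libraries. The value of Pgam1 was −0.13 without WT Myc replicate 2, against −0.21 with all libraries.

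The third comparison asked how the genes answered 4 h of HU. Most of the hypoxia genes rose, and among the glycolysis and pentose phosphate enzymes only Pfkfb3 passed the test. In WT cells 9 members were called, 8 higher and 1 lower, beside 9.83% of all genes (6.39% higher and 3.44% lower), and in KO cells 8 were called, all higher, beside 6.45% of all genes (4.65% higher and 1.80% lower). Of the 8 hypoxia genes, 6 rose in WT (median 0.68) and 6 in KO (0.73), while the median over all genes was 0.00 and −0.01, and 0 of the pentose phosphate and pyruvate genes were called in either. The exceptions among the hypoxia genes were Hif1a and Egln1, which were called in neither.

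**Figure D4:**
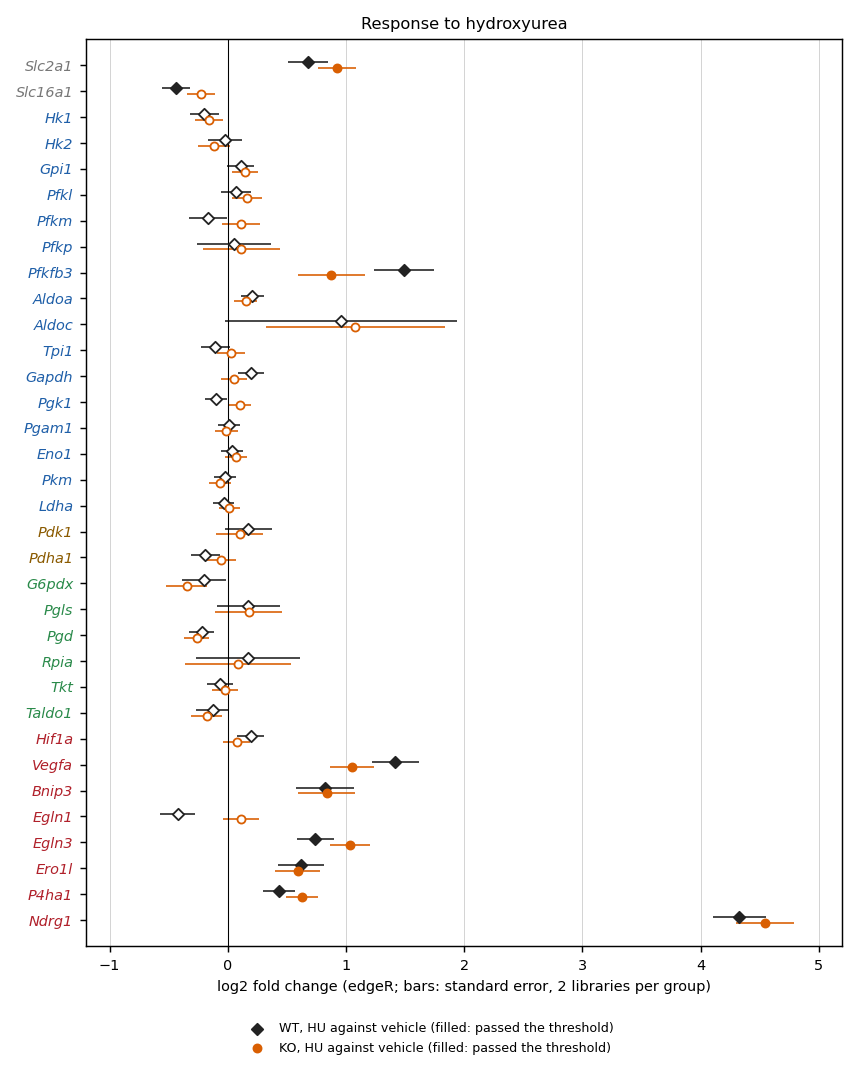
The plot shows the log2 fold change of HU against vehicle in WT (diamonds) and KO cells (circles), with bars for the standard error and filled symbols for an adjusted p below 0.05. Ndrg1 lies beyond 4 in both, Vegfa, Pfkfb3, Egln3, Bnip3, Slc2a1, Ero1l and P4ha1 lie between 0.43 and 1.49, and most of the enzymes lie around 0.

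Ndrg1 rose most. It was at 5.997 and 9.02 CPM in WT with vehicle and 144 and 162 with HU, and at 4.07 and 5.35 with vehicle and 123 and 102 with HU in KO. The groups were far apart, with 4.33 ± 0.224 in WT and 4.55 ± 0.245 in KO (edgeR adjusted p = 6.9e-25 and adjusted p = 7.85e-24). Vegfa was at 20.6 and 41.7 CPM in WT with vehicle and 86.9 and 81.7 with HU (1.42 ± 0.197), and at 51.6 and 45.4 with vehicle and 101 and 99.2 with HU in KO (1.05 ± 0.184). The WT vehicle libraries lay far apart from each other, but both were below the HU libraries. Egln3 was at 58.3 and 71.4 CPM with vehicle and 103 and 115 with HU in WT (0.74 ± 0.160) and at 43.9 and 44.8 with vehicle and 96.1 and 85.4 with HU in KO (1.03 ± 0.169).

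Pfkfb3 was at 18.8 and 18.4 CPM in WT with vehicle and 54.7 and 50.2 with HU (1.49 ± 0.255), and at 8.94 and 16.7 with vehicle and 26.5 and 21.3 with HU in KO (0.88 ± 0.285, adjusted p = 0.0495). Slc2a1 was at 45.4 and 56.8 CPM with vehicle and 83.0 and 81.4 with HU in WT (0.68 ± 0.170) and at 51.6 and 66.5 with vehicle and 116 and 109 with HU in KO (0.92 ± 0.163). HU was above vehicle without overlap for both genes in both cell types. Bnip3 was at 19.7 and 25.6 CPM with vehicle and 35.0 and 45.7 with HU in WT (0.82 ± 0.244) and at 24.4 and 22.7 with vehicle and 50.2 and 33.6 with HU in KO (0.84 ± 0.241). Ero1l was at 54.0 and 43.2 CPM with vehicle and 80.2 and 68.9 with HU in WT (0.62 ± 0.194) and at 74.4 and 39.4 with vehicle and 90.8 and 78.2 with HU in KO (0.59 ± 0.189). P4ha1 rose by 0.43 ± 0.132 in WT and 0.63 ± 0.136 in KO, and Slc16a1, at 209.9 and 242 CPM with vehicle and 162 and 172 with HU, fell in WT (−0.44 ± 0.118), with −0.23 ± 0.115 in KO (adjusted p = 0.299).

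Hif1a mRNA was at 384 and 323 CPM in WT with vehicle and 389 and 418 with HU (0.19 ± 0.110, adjusted p = 0.316), and at 281 and 231 with vehicle and 260.2 and 278 with HU in KO (0.08 ± 0.114, adjusted p = 0.821). Its protein was not measured here. Ldha (−0.04 in WT, 95% interval −0.22 to 0.14), Pkm (−0.02, −0.20 to 0.16), Aldoa (0.21, 0.01 to 0.40), Gapdh (0.20, −0.02 to 0.41) and Hk2 (−0.02, −0.30 to 0.25) were not called. The same held for Pfkp (0.05, −0.56 to 0.67), Pdk1 (0.18, −0.21 to 0.57), G6pdx (−0.20, −0.56 to 0.16) and Tkt (−0.06, −0.28 to 0.15).

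The response did not differ past the threshold between KO and WT cells for any of the 34 members in the edgeR interaction test, in which 0.0714% of all genes (0.0446% higher and 0.0268% lower) were called. The interaction of 1 member, Egln1, had an unadjusted p below 0.05, and DESeq2 called 0 members. The interval of the difference was −0.57 to 1.01 for Ndrg1, −0.90 to 0.17 for Vegfa and −1.38 to 0.14 for Pfkfb3 on the log2 scale, and differences of the sizes within these intervals are not excluded. Without WT HU replicate 1, or without WT HU replicate 2, 5 members were called in WT, and without KO HU replicate 1 5 were called in KO. In WT, the calls of Ero1l and Slc16a1 were lost without WT HU replicate 1, WT vehicle replicate 2 or WT HU replicate 2 (adjusted p up to 0.288 and 0.162). The call of P4ha1 was lost without WT vehicle replicate 1, WT HU replicate 1 or WT HU replicate 2 (adjusted p up to 0.299). The call of Bnip3 was lost without WT vehicle replicate 1 or WT HU replicate 2 (adjusted p up to 0.292). The call of Slc2a1 was lost without WT vehicle replicate 1 or WT HU replicate 1 (adjusted p up to 0.0931). In KO, the call of Bnip3 was lost without KO vehicle replicate 1, KO HU replicate 1 or KO vehicle replicate 2 (adjusted p up to 0.516). The call of Ero1l was lost without KO HU replicate 1, KO vehicle replicate 2 or KO HU replicate 2 (adjusted p up to 0.744). The call of Pfkfb3 was lost without KO vehicle replicate 1, KO HU replicate 1 or KO HU replicate 2 (adjusted p up to 0.443). The value of Pfkfb3 was 0.53 without KO vehicle replicate 1 and 1.41 without KO vehicle replicate 2, against 0.88 with all libraries. The value of Ero1l was 1.11 without KO vehicle replicate 1 and 0.18 without KO vehicle replicate 2, against 0.59 with all libraries. The value of Bnip3 was 0.51 without KO HU replicate 1, against 0.84 with all libraries.

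The last comparison set KO against WT cells within the HU experiment. With vehicle, 10 members were called, 7 higher and 3 lower in KO, beside 12% of all genes (6.29% higher and 5.74% lower), and with HU 10 were called, 7 higher and 3 lower, beside 11% of all genes (5.75% higher and 5.25% lower). With vehicle the higher members were Hk2, Gpi1, Aldoa, Gapdh, Ldha, Taldo1 and Vegfa, and with HU Slc2a1, Hk2, Gpi1, Aldoa, Ldha, Slc16a1 and Taldo1, while the lower ones were Hif1a, Egln1 and Egln3 with vehicle and Pfkfb3, Hif1a and Ndrg1 with HU. These are the same libraries as in the HU comparisons.

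Ldha was at 1554 and 1581 CPM in WT and 1979.9 and 2098 in KO with vehicle (0.38 ± 0.0916, adjusted p = 0.0029), and at 1526 and 1532 in WT and 1991 and 2128 in KO with HU (0.43 ± 0.0915). Aldoa was at 656 and 605 CPM in WT and 808 and 953 in KO with vehicle (0.48 ± 0.0997) and at 726 and 731 in WT and 994 and 964 in KO with HU (0.43 ± 0.0987). All KO libraries lay above the WT libraries of the same treatment. Hk2 was at 86.5 and 114 CPM in WT and 152 and 150.02 in KO with vehicle (0.58 ± 0.138) and at 99.3 and 99.1 in WT and 139 and 139 in KO with HU (0.49 ± 0.137). Gpi1, the isomerase after hexokinase, was higher by 0.44 ± 0.112 and 0.47 ± 0.110, and Taldo1 by 0.57 ± 0.137 and 0.52 ± 0.137. Gapdh, at 282 and 272 CPM in WT and 328 and 399 in KO, was higher with vehicle (0.39 ± 0.110), and with HU, at 311 and 325 in WT and 361 and 396 in KO, it was at 0.25 ± 0.109 (adjusted p = 0.132). Slc2a1 (0.46 ± 0.156) and Slc16a1 (0.48 ± 0.118) were higher with HU.

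Hif1a was lower in KO with vehicle (−0.47 ± 0.113) and with HU (−0.58 ± 0.112), and its KO libraries lay below the WT libraries in both. Pfkfb3 was lower in KO with HU (−1.13 ± 0.245, adjusted p = 0.000772), while with vehicle it was at −0.51 ± 0.297 (adjusted p = 0.289). Egln3 (−0.55 ± 0.175) and Egln1 (−0.44 ± 0.150) were lower with vehicle, and Ndrg1 with HU (−0.45 ± 0.154). Vegfa was higher in KO with vehicle (0.62 ± 0.209), a value that was 0.21 without WT vehicle replicate 1 and 1.23 without WT vehicle replicate 2. Ero1l was not called with either treatment (0.21 ± 0.201 and 0.18 ± 0.182). Pkm was at 2045 and 2257 CPM in WT and 2185 and 2411 in KO with vehicle and at 2165 and 2074 in WT and 2161 and 2226 in KO with HU, with no call. Pfkp, Pdk1, Tkt and G6pdx were not called either. Pfkp was at 19.7 and 19.5 CPM in WT and 14.6 and 17.4 in KO with vehicle and 14.6 and 26.3 in WT and 21.9 and 12.6 in KO with HU. Pdk1 was at 42.4 and 45.9 CPM in WT and 48.8 and 42.1 in KO with vehicle and 56.6 and 42.9 in WT and 44.9 and 52.6 in KO with HU, Tkt at 316 and 341 CPM in WT and 285 and 329 in KO with vehicle and 314 and 315 in WT and 308 and 296 in KO with HU, and G6pdx at 52.7 and 58.6 CPM in WT and 85.4 and 73.2 in KO with vehicle and 42.0 and 55.4 in WT and 58.0 and 66.4 in KO with HU. The KO and WT libraries overlapped for Pkm and Pdk1 with both treatments, for Tkt with vehicle and for Pfkp with HU, while those of G6pdx did not overlap.

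Few of these calls held when a library was left out: 2 of 10 with vehicle, Aldoa and Ldha, and 2 of 10 with HU, Pfkfb3 and Hif1a, held in every such fit. With vehicle, 6 members were called without WT vehicle replicate 1, 6 without WT vehicle replicate 2 and 4 without KO vehicle replicate 2. With HU, 3 were called without WT HU replicate 1, 6 without WT HU replicate 2 and 5 without KO HU replicate 2. With vehicle, the call of Egln1 was lost without WT vehicle replicate 1, KO vehicle replicate 1 or WT vehicle replicate 2 (adjusted p up to 0.347). The call of Egln3 was lost without KO vehicle replicate 1, WT vehicle replicate 2 or KO vehicle replicate 2 (adjusted p up to 0.27). The call of Vegfa was lost without WT vehicle replicate 1, KO vehicle replicate 1 or KO vehicle replicate 2 (adjusted p up to 0.642). The calls of Gapdh and Taldo1 were lost without WT vehicle replicate 2 or KO vehicle replicate 2 (adjusted p up to 0.231 and 0.093). The call of Hif1a was lost without WT vehicle replicate 1 or KO vehicle replicate 2 (adjusted p up to 0.111). The call of Gpi1 was lost without KO vehicle replicate 2 (adjusted p up to 0.0626). The call of Hk2 was lost without WT vehicle replicate 1 (adjusted p up to 0.11). The value of Vegfa was 0.21 without WT vehicle replicate 1 and 1.23 without WT vehicle replicate 2, against 0.62 with all libraries. The value of Egln1 was −0.27 without KO vehicle replicate 1, against −0.44 with all libraries. The value of Gapdh was 0.25 without KO vehicle replicate 2, against 0.39 with all libraries. With HU, the calls of Hk2, Ndrg1 and Slc2a1 were lost without any 1 of the 4 libraries compared (adjusted p up to 0.111, 0.41 and 0.242). The call of Aldoa was lost without WT HU replicate 1 or WT HU replicate 2 (adjusted p up to 0.062). The call of Taldo1 was lost without WT HU replicate 1 or KO HU replicate 2 (adjusted p up to 0.205). The calls of Gpi1 and Slc16a1 were lost without WT HU replicate 1 (adjusted p up to 0.0723 and 0.102). The call of Ldha was lost without KO HU replicate 2 (adjusted p up to 0.0521).

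**Figure D5:**
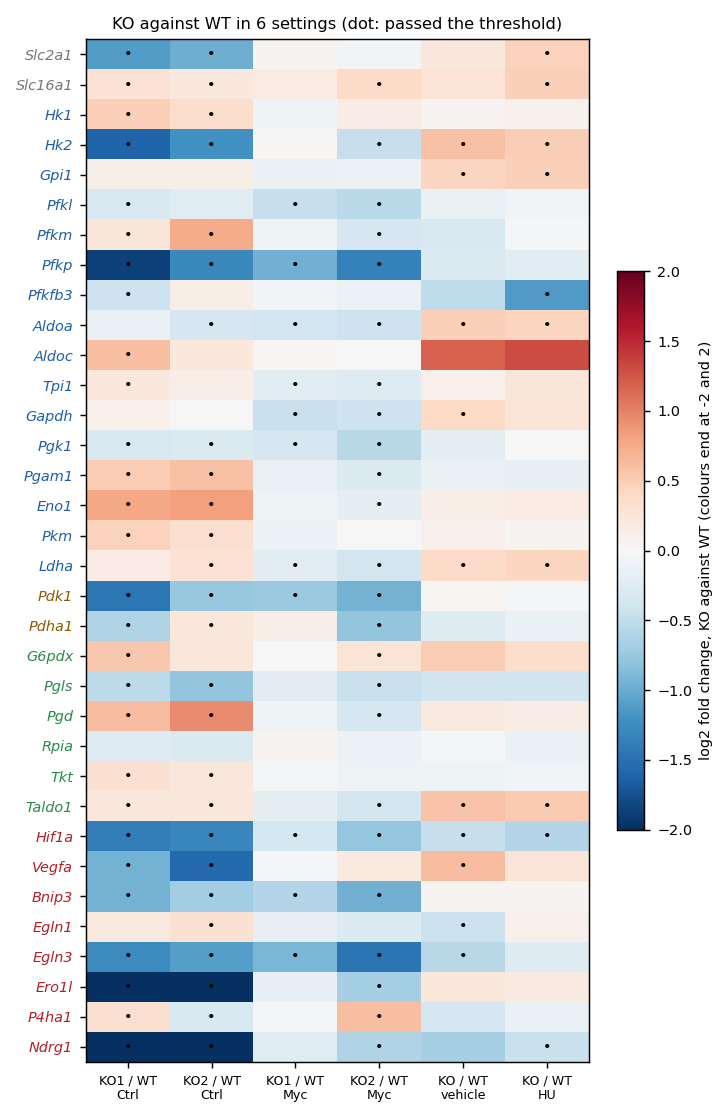
The map shows the log2 fold change of KO against WT for each member (rows, coloured by role as before) in 6 settings (columns), red for higher and blue for lower in KO, with a dot for members past the threshold and with colours that end at −2 and 2. Ero1l and Hk2 are deep blue in the first pair of columns and red in the columns of the HU experiment, where Ero1l did not pass, and Hif1a is blue with a dot in all 6 columns.

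The WT cells of the experiments stood at different levels before any treatment, which is given side by side, since the tables were normalised separately, and with no test. Ndrg1 was at 464 and 484 CPM in WT Ctrl and at 5.997 and 9.02 in WT with vehicle, Ero1l at 506 and 556 in WT Ctrl and 54.0 and 43.2 in WT with vehicle, and Vegfa at 315 and 317 in WT Ctrl and 20.6 and 41.7 in WT with vehicle. Slc2a1 was at 152 and 152 CPM in WT Ctrl and 45.4 and 56.8 in WT with vehicle, Hif1a at 917 and 889.8 in WT Ctrl and 384 and 323 in WT with vehicle, and Hk2 at 181 and 174 in WT Ctrl and 86.5 and 114 in WT with vehicle. All 6 were higher in the WT Ctrl libraries than in the other WT cells. KO Ctrl libraries and KO vehicle libraries lay closer together for Ero1l, at 53.7 and 54.7 CPM in KO1 Ctrl, 60.0 and 70.2 in KO2 Ctrl and 74.4 and 39.4 in KO with vehicle. The other genes of the 6 differed between the experiments in KO cells too, by the values given above. Ndrg1, Vegfa, Slc2a1 and Hif1a were lower in KO with vehicle than in all KO Ctrl libraries, and Hk2 was higher. The vector, the experiment and the sequencing depth differ together between these libraries and cannot be told apart.

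Other genes of the same pathways, from a second list of 73, were counted beside the members. In the Myc experiment 59 were tested: 35 (59.3%) were called in KO1 Ctrl, 13 higher and 22 lower, beside 52.2% of all genes, and 35 in KO2 Ctrl, 11 higher and 24 lower, beside 49.9%. Of the 26 further hypoxia genes, 9 were lower and 5 higher in KO1 and 11 lower and 2 higher in KO2, with median log2 fold changes of −0.25 and −0.13, and the shares called, 53.8% and 50%, were near those of all genes. With the Myc vector 32 (54.2%) were called in WT cells, 20 higher and 12 lower, beside 44.3% of all genes, and of the 16 further genes of glycolysis and glucose entry 5 were higher and 2 lower, a share near that of all genes. In the HU experiment 50 were tested, of which 7 rose in WT, beside 6.39% of all genes, and 8 in KO, beside 4.65%, and 0 fell. Of the 24 further hypoxia genes tested there, 7 rose with HU in WT and 6 in KO.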

How the data were processed

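RNA-seq covered 20 libraries of p19/Nras mouse liver cancer cells: 12 with the Ctrl or Myc vector and 8 with vehicle or HU. The authors deposited 1 table of counts per experiment, in whole numbers and not normalised although 1 table is named as normalised. Per the labels and the submitters' processing notes, reads were aligned with STAR 2.5.4 to mm9, and edgeR 3.26.8 was used; the counting tool and annotation are not given in the sources used here. The authors' tables of comparisons, which hold fold changes, average abundance, F and p-values, were not used.

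Groups were taken from the labels, with 2 libraries each. Counts were tested with edgeR 4.0.16 in R 4.3.3 (TMM scaling, filterByExpr, quasi-likelihood test, 1 coefficient per group, all libraries of an experiment in the fit), with Benjamini-Hochberg adjustment over all genes and thresholds of 0.01 (Myc) and 0.05 (HU). The steps were tested on simulated counts. Values in the text are TMM-scaled CPM, with ± SE for log2 fold changes. Intervals are approximate, built from the SE with the normal distribution. Alternatives were RLE scaling, no filter, a mean of at least 5 CPM, a replicate block, DESeq2 1.42.0, the compared groups alone, halved counts in the HU experiment and leaving out each library. Near-identical copies were sought in mm9 with blastn 2.17.0.

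The members and lists were chosen with earlier results of these data known. Genes named with the value of every library were a core set (Slc2a1, Hk2, Pfkp, Pfkfb3, Aldoa, Gapdh, Pkm, Ldha, Pdk1, Slc16a1, Slc16a3, G6pdx, Tkt, Hif1a, Vegfa, Bnip3, Egln3 and Ndrg1), and in each comparison up to 6 called members per direction with the largest change, a mean of at least 5 CPM and groups that did not overlap. Trim33 and Myc were given as checks of the labels. Other members are named to complete a step of a pathway. Replicate numbers did not pair the samples: the correlation of same-numbered deviations was −0.148 to 0.192 over 15 pairs of groups (Myc) and −0.0136 to 0.0510 over 6 pairs (HU). Libraries of 1 group differed by more than counting noise, and total counts per library, given with the results, set the precision.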

Additional observations from a re-analysis of the deposited data

Results flagged for a closer look

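The response to the Myc vector differed between WT cells and the lines labelled KO1 or KO2, by the interaction term of the edgeR fit, for the genes given here. Values are log2 responses in KO minus those in WT. They rest on the line labels, which the libraries labelled Myc go against, and the cause was not tested. Myc mRNA did not differ past the threshold between WT Myc and WT Ctrl.

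In KO1 the response was more positive for Ero1l (3.13), Ndrg1 (2.36), Hk2 (1.63), Slc2a1 (1.16), Hif1a (1.04) and Vegfa (0.91). It was more negative for Gapdh (−0.55), Hk1 (−0.57), Pkm (−0.58), Pgam1 (−0.66), Pgd (−0.70) and Eno1 (−0.87). In all, 22 members differed, 9 more positive and 13 more negative, beside 37.3% of all genes.

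In KO2 the response was more positive for Ero1l (2.36), Ndrg1 (2.17), Vegfa (1.74), Slc2a1 (0.91), P4ha1 (0.90) and Hk2 (0.75). It was more negative for Ldha (−0.66), Pgam1 (−0.85), Pdha1 (−1.01), Eno1 (−1.02), Pfkm (−1.08) and Pgd (−1.28). In all, 19 members differed, 7 more positive and 12 more negative, beside 32.8% of all genes. Both sets use the same WT libraries, and the WT Ctrl pair also enters the comparisons of KO Ctrl and of WT Myc with WT Ctrl. In the mean of both lines, P4ha1 (0.28) and Pdha1 (−0.14) did not pass the threshold. That mean does not depend on which KO libraries belong to which line. It still rests on the labels of the WT Ctrl and WT Myc libraries.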

How the results depend on the processing

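None of the 243 gene calls in the 15 comparisons by label changed direction under any alternative run, and none of those in the 3 means of both KO lines did when a library was left out, the only alternative run for them. The number of members called moved by over 1.5 times in few settings. With the compared groups alone, 16 members rather than 10 were called between KO2 Ctrl and KO1 Ctrl, and 7 rather than 11 between KO1 Myc and WT Myc, where averaging both KO lines, chosen after seeing the data, gave 22. DESeq2 called 5 rather than 8 members for HU in KO cells. Leaving out 1 library gave 13 to 19 members for Myc in KO1 (20 with all), 6 to 14 for KO1 Myc against WT Myc (11), 5 to 7 for HU in WT (9), 5 to 6 for HU in KO (8), 4 to 7 for KO against WT with vehicle (10) and 3 to 7 with HU (10). With 1 library left in a group, that library is assumed to vary like the other groups.

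A fit with the replicate number as a block kept all 15 counts within 1.5 times and lost 0 of the 243 gene calls. DESeq2 lost 20 of them: Pfkm, Pfkfb3, Tpi1 and Taldo1 in KO1 Ctrl, Bnip3 for Myc in KO2, Tpi1 and Bnip3 between KO1 Myc and WT Myc, Pfkm and P4ha1 in the interaction with KO1, Bnip3, Ero1l and P4ha1 for HU in WT, Pfkfb3, Bnip3 and Ero1l for HU in KO, Vegfa, Egln1 and Egln3 between KO and WT with vehicle and Slc2a1 and Ndrg1 with HU. The compared groups alone lost 15: G6pdx for Myc in WT, Tpi1, Pgk1, Ldha and Hif1a between KO1 Myc and WT Myc, Tpi1, Pgam1, Eno1 and G6pdx between KO2 Myc and WT Myc, Pfkm and P4ha1 in the interaction with KO1, Pfkfb3 for HU in KO, and Vegfa, Egln1 and Egln3 between KO and WT with vehicle. RLE scaling and the minimum of 5 CPM each lost 1, Pfkfb3 for HU in KO. The block called 28 members in KO1 Ctrl, 26 in KO2 Ctrl and 12 between them, 26 for Myc in WT, 21 in KO1 and 20 in KO2, 11 and 24 for KO1 and KO2 against WT with Myc, 22 and 19 in the interactions, 10 and 8 for HU in WT and KO, 11 and 10 for KO against WT with vehicle and HU, and 0 in the HU interaction. Since the numbers do not pair the samples, the block is given for completeness.

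With 2 libraries a group and 2315327 to 3082202 counts per library in the HU experiment, the values of low genes such as Aldoc, Rpia and Pgls are less precise there. The excess of even counts in that table was not explained by any source used here, and halving the counts lost 2 gene calls, Pfkfb3 for HU in KO and Vegfa between KO and WT with vehicle.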
